A study of Mus musculus with 5 samples.

Results

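The LSK and MEP libraries were compared gene by gene as sums of unique molecular identifiers (UMIs) over the cells of each sort gate. A barcode of the LSK matrix, which holds every barcode read, entered at the UMI minimum that leaves 10883 barcodes (the series text states 10882 LSK cells), and a cell of either matrix was kept with 500 or more detected genes and at most 10% of its UMIs from mitochondrially encoded genes. These rules kept 10870 LSK cells and 6284 MEP cells, which together are 17154 of the 28894 cells kept from the 4 gates of the series. The matrices list 27998 genes, and 3350 of them reached 50 CPM in LSK or in MEP, where CPM is the number of UMIs of a gene per 1000000 UMIs of its library.

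All cells were sorted from the bone marrow of healthy wild-type C57BL/6 mice and measured as 3′ ends of polyadenylated RNA on the 10x Genomics Chromium platform. LSK cells were gated as Lin-SCA1+KIT+ and MEP cells (megakaryocyte/erythroid progenitors) as Lin-KIT+SCA1-CD34-CD16/32-. The common myeloid progenitor (CMP, CD34+CD16/32-) and granulocyte/monocyte progenitor (GMP, CD34+CD16/32+) gates are Lin-KIT+SCA1- as well, and are used here only for the order of levels. Neither the number of mice behind a gate nor their age or sex was given in the labels used here. Each gate is 1 library, so no difference below has a replicate check, and gate and library cannot be told apart.

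Blood formation starts from rare stem cells, which give rise to multipotent progenitors and then to cells committed to a lineage. In the mouse the LSK gate holds the stem cells together with multipotent progenitors, some of which already lean towards lymphoid or myeloid fates. The MEP gate holds cells on the way to red cells and megakaryocytes, and red cell precursors are known for high proliferation, ribosome production, iron uptake and heme synthesis.

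The kept cells held 75167959 UMIs in LSK and 80273121 in MEP, with medians of 5991.5 and 12578 UMIs and 2184 and 3131.5 genes per cell. At this depth 3 UMIs, the floor used for a detected gene, correspond to 0.0399 CPM in LSK and 0.0374 CPM in MEP. Ribosomal protein genes took 32.9% of the LSK and 30.3% of the MEP UMIs, and mitochondrially encoded genes took 3.21% and 3.31%. When every cell was thinned to 2000 UMIs, the median LSK cell showed 1007 genes and the median MEP cell 998, so the larger number of genes in MEP cells was not present at equal depth. There were 87 cell barcodes that both libraries used. All intervals below are exact 95% intervals and cover counting error only.

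The sort antigens are a check of the labels and not a finding, since the gates were set on their proteins. Ly6a, which encodes SCA1, stood at 78.2 CPM in LSK and 0.112 CPM in MEP. Cd34 stood at 399 and 0.498 CPM. Kit, the stem cell factor receptor that both gates select for, was at 100.5 CPM in LSK and 46.8 CPM in MEP, a log2 ratio of 1.10. The CD16/32 genes Fcgr3 and Fcgr2b were low in both libraries, at 0.838 and 6.31 CPM in LSK and 0.149 and 0.336 CPM in MEP. The transcripts of the antigens that separate the gates thus lay on the side given by the labels. Ly6a had a UMI in 14.96% (14.3 to 15.6%) of LSK cells thinned to 2000 UMIs and in 35.3% of the unthinned cells, so a cell without a UMI is not a cell without the transcript.

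Of the 3350 genes at 50 CPM or more, 548 (16.4%) were at least 2-fold higher in LSK, 452 (13.5%) at least 2-fold higher in MEP, and 1000 (29.9%) in either direction. A gene is called higher below when it passed this 2-fold line by CPM. The balance of the directions depended on the scaling. The log2 ratios moved by -0.54 with median-of-ratios factors over all shared genes, which left 393 genes higher in LSK against 1203 higher in MEP (24.62% in LSK, compared with 54.8% by CPM). They moved by -0.47 with TMM factors (412 against 1098, 27.28% in LSK) and by -0.89 with UMIs per cell (332 against 1784, 15.69%). They moved by 0.25 with median-of-ratios factors over the 2179 genes at 50 CPM or more in both libraries, called the 50 CPM factors below (697 against 277, 71.56% in LSK and 29.1% of the tested genes in either direction). Under CPM, median of ratios and TMM, the 3 scalings named below, 393 genes (11.7%) were higher in LSK. These scalings move no ratio towards LSK, so every MEP call by CPM passes them by construction. For the MEP side the counts with the 50 CPM factors are therefore given beside those by CPM, and over all genes they keep 277 (8.27%) of the tested genes higher in MEP.

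Large ratios were mostly towards LSK. At 4-fold there were 307 genes (9.16%) higher in LSK and 97 (2.9%) in MEP, at 10-fold 171 (5.1%) and 48 (1.43%), and at 100-fold 35 (1.04%) and 18 (0.537%). A set of 44 genes stood at 50 CPM or more in LSK and under 1 CPM in MEP, and 15 genes showed the opposite. At the 2-fold line, Bfar (1.005) and Ripk3 (1.01) lay just inside and Msn (0.9974) and Ankrd10 (0.9961) just outside on the LSK side by log2 ratio. On the MEP side Ldha (-1.001) and Med10 (-1.002) lay just inside, and Asna1 (-0.999) and Mrps18a (-0.9986) just outside.

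**Figure D1:**
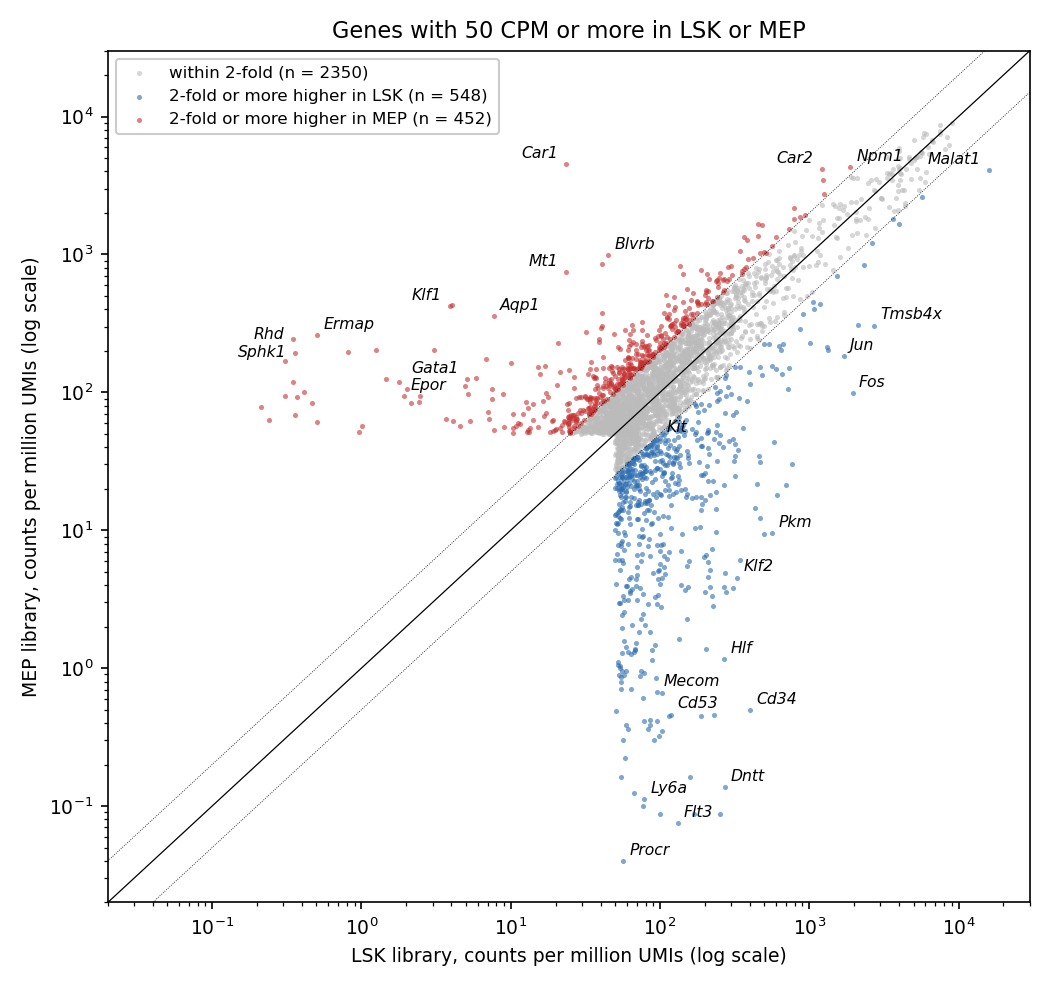
CPM of the 3350 genes at 50 CPM or more in either library, LSK on the x axis and MEP on the y axis, both log scales; blue and red points are at least 2-fold higher in LSK (548) and in MEP (452), the solid line marks equal CPM and the dotted lines 2-fold. Procr, with 2 UMIs in MEP, is drawn at 0.04 CPM, and the blue points reach farther from the solid line than the red ones.

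The direction changed with expression level. Among genes with a mean of 1 to 3 CPM the median log2 ratio was 1.74 and 84.4% of 1577 genes had the higher CPM in LSK. The median was 0.90 at 3 to 10 CPM, 0.36 at 10 to 30 CPM and -0.03 at 30 to 100 CPM. It was -0.32 for the 1073 genes at 100 to 300 CPM and -0.44 for the 301 genes at 300 to 1000 CPM, where 26.25% of genes had the higher CPM in LSK. The 140 genes at 1000 CPM or more had a median of 0.01. LSK thus had more of its UMIs on many low genes, and 1936 genes reached 1 CPM in LSK alone against 236 in MEP alone, beside 9713 in both. The gradient remained at equal depth per cell: with all cells thinned to 2000 UMIs the medians at 1 to 3 and at 300 to 1000 CPM were 1.63 and -0.50, and in cells of 5000 to 15000 UMIs 1.49 and -0.40 (both alternatives were chosen after seeing the data). Over all 11365 genes with a mean of 1 CPM or more, the median log2 ratio was 0.36 by CPM. Over the 3350 genes at 50 CPM it was -0.18, which is the nearer background for the lists whose members are nearly all abundant.

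**Figure D2:**
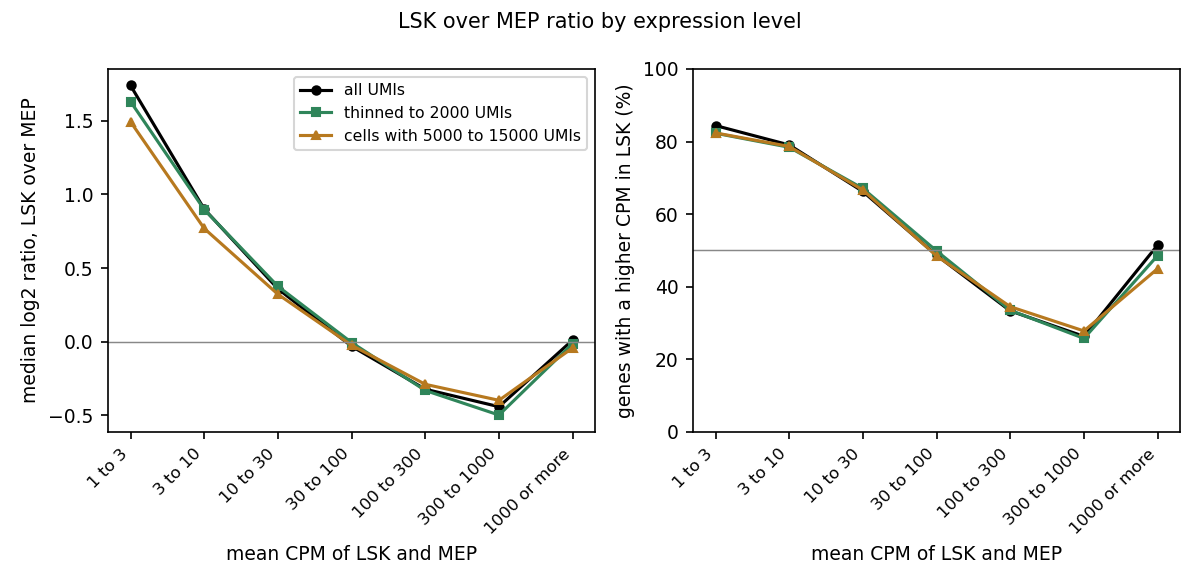
Median log2 ratio of LSK over MEP (left) and percentage of genes with the higher CPM in LSK (right) by the mean CPM of the gene in both libraries, for all UMIs, for cells thinned to 2000 UMIs and for cells of 5000 to 15000 UMIs. The 3 curves fall together from medians of 1.74, 1.63 and 1.49 at 1 to 3 CPM to -0.44, -0.50 and -0.40 at 300 to 1000 CPM.

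Transcription factors of stem cells were higher in LSK. Of 22 listed regulators, 14 reached 50 CPM and 12 of them were called higher in LSK under all 3 scalings, with none higher in MEP, and the median log2 ratio over the list was 3.69. Hlf, a PAR bZIP factor known for maintaining stem cells, stood at 269 CPM in LSK and 1.16 in MEP, and at 11.1 in CMP and 3.56 in GMP, with a log2 ratio of LSK over MEP of 7.86 (7.56 to 8.17). It was seen in 41.8% (40.8 to 42.7%) of LSK cells and 0.334% (0.207 to 0.510%) of MEP cells at 2000 UMIs. Mecom, which encodes EVI1, was at 95.9 CPM against 0.673 CPM. The ETS factor Erg was at 67.9 against 1.35 CPM. Meis1, a partner of HOX proteins, was at 151 against 5.51 CPM, and Sox4 at 461 against 34.6 CPM. The members that did not pass were Gata2, at 70.2 and 39.9 CPM, and Bcl11a, a repressor of fetal globin genes, at 144 and 164 CPM.

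The Hox genes measured at 50 CPM were Hoxa9 (97.6 CPM in LSK and 12.3 in MEP) and Hoxa7 (69.4 and 3.91), and both were called higher in LSK. Hoxa10 and Hoxb4 were lower genes with log2 ratios of 4.76 and 2.16. The median over 9 Hox genes was 4.10, all on the same side.

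Among 19 stem cell surface antigens, 7 of the 10 at 50 CPM were called higher in LSK, none in MEP, with a median log2 ratio of 4.75. One of the 7 is the gate antigen Ly6a, which is no finding. Another is Cd48, at 123 against 30.7 CPM, which was higher still in CMP (317 CPM) and GMP (235 CPM). Procr, the endothelial protein C receptor used to sort stem cells, had 4260 UMIs in LSK (56.7 CPM) and 2 in MEP, a log2 ratio of 11.15 with an interval of 9.30 to 14.20 (10.57 when MEP is set at the floor of 3 UMIs). Adgrl4, an adhesion G protein-coupled receptor, was at 188 against 0.448 CPM. Cd27, a TNF receptor family member, was at 217 against 3.86 CPM. The members that did not pass had similar or higher CPM in MEP. The dye transporter gene Abcg2 was at 47.7 CPM in LSK and 64.4 in MEP, and the tetraspanin gene Cd82 at 50.4 and 94.3 CPM. Cd81, another tetraspanin gene, was at 304 and 322 CPM. The log2 ratio of Cd82 was -0.91 by CPM, short of the 2-fold line, and passes it towards MEP with median-of-ratios or TMM factors.

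Apart from the gate antigens, lymphoid genes gave the highest median of the lists. All 8 of the lymphoid-primed genes that reached 50 CPM were called higher in LSK, and the median over 14 genes was 6.21. Dntt, the terminal transferase that adds bases at rearranging antigen receptor genes, had 20422 UMIs in LSK and 11 in MEP (272 and 0.137 CPM), a log2 ratio of 10.95 (10.11 to 11.96). Its UMIs were concentrated, with 59.7% of them in the 5% of LSK cells that held most. Flt3, the receptor that marks lymphoid-primed progenitors, stood at 131 CPM in LSK and 0.0747 in MEP, and at 39.9 in CMP and 4.06 in GMP. It was seen in 22.2% (21.4 to 23.01%) of thinned LSK cells and 0.0318% (0.00385 to 0.115%) of thinned MEP cells. Ltb, the lymphotoxin beta chain, was at 202 against 1.37 CPM, and Satb1, a chromatin organiser of lymphocytes, at 78.4 against 0.411 CPM.

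Granulocyte and monocyte genes were also higher in LSK than in MEP, for all 6 of the listed genes at 50 CPM, with a median of 4.98. Their summed level was 1319 CPM in LSK and 38.6 in MEP, against 7644 in CMP and 32457 in GMP. Mpo, the granule enzyme myeloperoxidase, was at 103 CPM in LSK and 0.660 in MEP, and at 1761 in CMP and 4405 in GMP. LSK barcodes of 1 to 100 UMIs had Mpo at 133 CPM, above the level in LSK cells. Cd34 (409 against 399 CPM) and Procr (71.2 against 56.7 CPM) were also above their level in the cells there, and Hlf (192 against 269 CPM) below it. These low barcodes therefore cannot set free RNA apart from RNA of the cells. Spi1, which encodes PU.1, was at 156 against 6.03 CPM, and was seen in 27.3% (26.5 to 28.1%) of thinned LSK cells and 1.97% (1.64 to 2.35%) of thinned MEP cells. Tmsb4x, an actin-binding peptide gene outside the list, was at 2698 CPM in LSK and 305 in MEP, and at 6355 in CMP and 7154 in GMP.

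The largest ratio of the comparison belonged to the chemokine gene Ccl3, with 18987 UMIs in LSK and 7 in MEP, a log2 ratio of 11.50 (10.46 to 12.81). Ccl4, its neighbour in the chemokine cluster, was at 159 against 0.162 CPM, and Ccl9 at 90.5 against 0.299 CPM. All 3 were higher still in CMP, at 411, 344 and 381 CPM. Wfdc17, a secreted whey acidic protein family gene, was at 169.6 against 0.0872 CPM. Emb, a cell adhesion glycoprotein gene, was at 231 against 0.461 CPM and reached 503 CPM in GMP. LSK barcodes of 1 to 100 UMIs held Ccl3, Ccl4, Ccl9, Wfdc17 and Emb at 323, 177, 86.5, 178 and 200 CPM. In LSK cells Ccl3 was at 253 CPM. The other genes among the 15 with the largest ratios towards LSK, outside the lists, were Shisa8, Myl10, Kcnk12 and Trf, which encodes transferrin, with log2 ratios of 9.58, 9.07, 8.40 and 8.02.

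Cytokine receptor genes were divided. Of 7 members of the receptor and JAK-STAT list at 50 CPM, 4 were higher in LSK (57.1%, against 16.4% of all genes). In MEP 2 were higher (28.6%, against 13.5% of all genes), 1 with the 50 CPM factors. The list median by CPM was 2.82. Il11ra1, an interleukin 11 receptor chain, was at 82.3 CPM in LSK and 16.3 in MEP, a log2 ratio of 2.33 (2.25 to 2.42). Pim1, a kinase gene induced by cytokine signals, was at 271 against 21.2 CPM. Epor, the erythropoietin receptor, was at 1.93 CPM in LSK and 93.3 in MEP, a log2 ratio of -5.60 (-5.84 to -5.36). Ifngr1, an interferon gamma receptor chain, was the other gene higher in MEP by CPM, at 83.0 against 185 CPM, and lost the call with the 50 CPM factors. Socs3, a feedback inhibitor of cytokine signals, was below 50 CPM and stood at 37.6 against 0.0623 CPM. The signal transducer Stat3 was at 71.9 against 8.00 CPM, while Stat5a was at 33.0 against 39.1 CPM.

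Adhesion genes were higher in LSK for 5 of 10 at 50 CPM, 4 of them under the 3 scalings, with a median of 1.795. The tetraspanin gene Cd63 was at 339 against 91.2 CPM, and its relative Cd53 at 119 against 0.461 CPM. The integrin chains that bind fibronectin and VCAM1 were among the genes that did not pass. Itga4 was at 56.4 and 93.2 CPM, and Itgb1 at 65.8 and 68.1 CPM.

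The erythroid transcription factors as a list had a median log2 ratio of -0.19. Of 15 at 50 CPM, 6 (40%) were called higher in MEP, by CPM and with the 50 CPM factors. Over all genes these shares were 13.5% and 8.27%. In LSK 2 were higher by CPM (13.3%, near the 16.4% of all genes) but not under the 3 scalings. The list median has no stable direction, since it was 0.07 with the 50 CPM factors. The genes higher in MEP were Klf1, Gata1, Gfi1b, E2f4, Zfpm1 and Klf3. Klf1, the Kruppel-like activator of red cell genes (chr8:84901928-84905291 in GRCm38), stood at 3.95 CPM in LSK and 422 in MEP, and at 12.3 in CMP and 1.12 in GMP, with a log2 ratio of LSK over MEP of -6.74 (-6.91 to -6.57). It was seen in 0.635% (0.494 to 0.803%) of thinned LSK cells and 52.6% (51.4 to 53.9%) of thinned MEP cells. LSK barcodes of 1 to 100 UMIs held Klf1 at 4.24 CPM (5 UMIs, no interval computed), beside 3.95 CPM in LSK cells. Gata1, the zinc finger factor that activates erythroid and megakaryocyte genes, was at 5.11 against 125 CPM, and 5.09 CPM in those low barcodes.

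Factors that act with GATA1 in the same complexes were measured in LSK as well. Lmo2, a bridging protein of the complex, was at 902 CPM in LSK and 368 in MEP. Tal1 was at 40.1 and 78.8 CPM, and Ldb1 at 51.8 and 74.8 CPM. Nfe2, known for its part in platelet formation and globin expression, was at 114 CPM in LSK and 54.0 in MEP. Lmo2 and Nfe2 were called higher in LSK by CPM but not under the 3 scalings, with log2 ratios of 1.30 and 1.07. Myb, a factor of proliferating progenitors, differed little, at 138 and 153 CPM.

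The promoters of 4 of the genes higher in MEP hold a short GATA motif close to the start site, and are shown because GATA1 is the factor known to bind such letters in red cell precursors. They were chosen after the matches were seen. The motifs searched were AGATAA and TGATAA on both strands, in the 250 bases before and 50 bases after each RefSeq start site (GRCm38.p6). Each line gives the bases before the start site on the gene's strand, 5′ to 3′, cut where the GENCODE M21 gene begins, with the match in capitals. Klf1 lies on the plus strand at chr8:84901832-84901927, Rhd on the plus strand at chr4:134864386-134864535, Ermap on the minus strand at chr4:119190012-119190145 and Epor on the minus strand at chr9:21963577-21963726.
Klf1: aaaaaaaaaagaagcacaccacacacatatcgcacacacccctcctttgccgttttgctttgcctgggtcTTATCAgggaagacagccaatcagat
Rhd: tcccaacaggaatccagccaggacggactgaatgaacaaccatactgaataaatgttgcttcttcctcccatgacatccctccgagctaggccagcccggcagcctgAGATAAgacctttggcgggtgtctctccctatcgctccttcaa
Ermap: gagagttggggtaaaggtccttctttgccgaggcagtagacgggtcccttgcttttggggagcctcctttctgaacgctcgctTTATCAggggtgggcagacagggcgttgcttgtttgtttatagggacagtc
Epor: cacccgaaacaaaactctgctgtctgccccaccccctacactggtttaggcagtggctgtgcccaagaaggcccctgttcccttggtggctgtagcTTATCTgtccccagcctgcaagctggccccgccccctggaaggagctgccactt
The match ran from base 80 to base 75 before the start in Klf1, 43 to 38 in Rhd, 67 to 62 in Ermap and 54 to 49 in Epor. The letters were on the opposite strand in Klf1, Ermap and Epor. One or the other motif was present for 10 of the 38 matched genes that were 10-fold higher in MEP (26.32%), for 20.96% of all 27025 genes in the table and for 12.46% of the 2616 matched genes at 50 CPM. The share was nearly equal in the 357 matched genes higher in MEP (15.69%) and the 417 higher in LSK (16.07%). A match describes letters in the window and is not evidence of binding.

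Genes of the red cell membrane gave the lowest median of the lists at -5.44. Of 11 members at 50 CPM, 9 were called higher in MEP by CPM and with the 50 CPM factors, and none higher in LSK. Rhd, which encodes the Rh blood group protein, had 26 UMIs in LSK and 19639 in MEP (0.346 and 245 CPM), a log2 ratio of -9.47 (-10.08 to -8.91). Ermap, an erythroblast membrane protein of the immunoglobulin family, was at 0.506 against 261 CPM. Tspan33, a tetraspanin of red cell precursors, was at 4.92 against 112 CPM, and the water channel gene Aqp1 at 7.70 against 358 CPM. The other 2 did not pass. Add1, the alpha adducin of the membrane skeleton, was at 42.5 and 65.2 CPM, and Cd24a at 229 and 389 CPM.

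Several genes outside the list had ratios of the same size. Sphk1, which makes sphingosine 1-phosphate, was at 0.359 CPM in LSK and 194 in MEP, with 0 UMIs in GMP. Slc38a5, a glutamine transporter, was at 0.346 against 119 CPM, and the mitochondrial carrier gene Slc25a21 at 0.466 against 83.8 CPM. Car1, carbonic anhydrase 1, had the largest difference in CPM towards MEP, at 23.5 CPM in LSK and 4513 in MEP, and at 74.9 in CMP and 1.17 in GMP. It was seen in 97.5% (97.1 to 97.8%) of thinned MEP cells and in 0.994% (0.816 to 1.20%) of thinned LSK cells. LSK barcodes of 1 to 100 UMIs held it at 30.5 CPM (36 UMIs, no interval computed), beside 23.5 CPM in LSK cells. Car2, carbonic anhydrase 2, was at 1209.8 CPM in LSK and 4174 in MEP, and at 235 in CMP and 22.6 in GMP. Outside the lists, the 15 strongest ratios towards MEP also belonged to Prss50, Paqr9, Nxpe2, Col5a1 and Atp1b2, with log2 ratios between -8.26 and -6.92.

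Heme synthesis genes were higher in MEP along the pathway. Of 10 members at 50 CPM, 8 were higher in MEP by CPM and with the 50 CPM factors, and the median was -1.83. In LSK 1 was higher by CPM but not under the 3 scalings. The cytosolic and mitochondrial enzymes Alad (64.7 against 306 CPM), Urod (65.6 against 233), Cpox (20.6 against 226) and Fech (13.4 against 51.5) all lay on the MEP side. Blvrb, a biliverdin reductase of red cells, was at 45.2 against 991 CPM and was seen in 79.9% (78.9 to 80.9%) of thinned MEP cells and 8.61% (8.09 to 9.15%) of thinned LSK cells. The first enzyme of the pathway was low in MEP in both of its forms. The erythroid form Alas2 was at 0.0266 CPM in LSK and 1.01 in MEP, and the housekeeping form Alas1 at 28.2 and 12.3 CPM. Hmox2, which breaks heme down, was the gene higher in LSK, at 117 against 41.8 CPM.

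Of 10 iron genes at 50 CPM, 7 were higher in MEP by CPM (70%, against 13.5% of all genes). With the 50 CPM factors 4 were (40%, against 8.27% of all genes). None was higher in LSK, and the median by CPM was -0.99. The 3 that lost the call were Nfs1, Isca2 and Tfr2. Tfrc, the transferrin receptor, was at 7.53 against 90.03 CPM, and Steap3, a ferrireductase of red cell precursors, at 7.01 against 72.2 CPM. Glrx5, which serves iron-sulfur cluster assembly, was at 136 against 818 CPM. Both ferritin chains were abundant in each library and did not pass, with Fth1 at 2095 and 3565 CPM and Ftl1 at 2044 and 2414 CPM. The metallothionein genes Mt1 (23.6 against 747 CPM) and Mt2 (4.04 against 431 CPM), whose proteins bind zinc and copper, were also far higher in MEP.

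Of the globin genes, 3 reached 50 CPM and 2 of them, Hba-a1 and Hbb-bs, were called higher in MEP by CPM and with the 50 CPM factors. Hba-a1 was at 2.01 CPM in LSK and 106 in MEP, Hbb-bs at 4.11 and 61.7, and Hbb-bt at 42.1 and 57.6. The adult beta globin genes had unequal log2 ratios of -3.91 and -0.45. Hbb-bt had a UMI in 5.58% (5.16 to 6.03%) of thinned LSK cells, and LSK barcodes of 1 to 100 UMIs held it at 37.3 CPM, near the 42.1 CPM of the cells. The MEP matrix holds called cells only, so no such low barcodes could be measured there. Reads of Hba-a1 and Hba-a2, and of Hbb-bs and Hbb-bt, can be split between near-identical copies, and the values of single globin genes are uncertain for that reason.

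Megakaryocyte genes lay mostly on the LSK side, while the MEP gate is named for that lineage too. Of 6 genes at 50 CPM, 5 were called higher in LSK under the 3 scalings, none in MEP, with a median of 1.67. Plek, the platelet protein pleckstrin, was at 65.3 against 3.72 CPM, and the calmodulin-binding gene Nrgn at 148 against 20.03 CPM. Itga2b, the platelet integrin chain CD41, was at 23.7 against 5.29 CPM. Pf4, platelet factor 4, was at 88.5 CPM in LSK, 75.9 in MEP and 339 in CMP. The 5% of MEP cells with most Pf4 held 97.4% of its MEP UMIs, and the corresponding share in LSK was 71.0%. Gp5, the platelet glycoprotein V gene, was below 50 CPM and lay on the MEP side, at 10.7 CPM in LSK and 37.1 in MEP. In these sums, fewer cells that express a gene and less RNA per cell cannot be told apart.

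**Figure D3:**
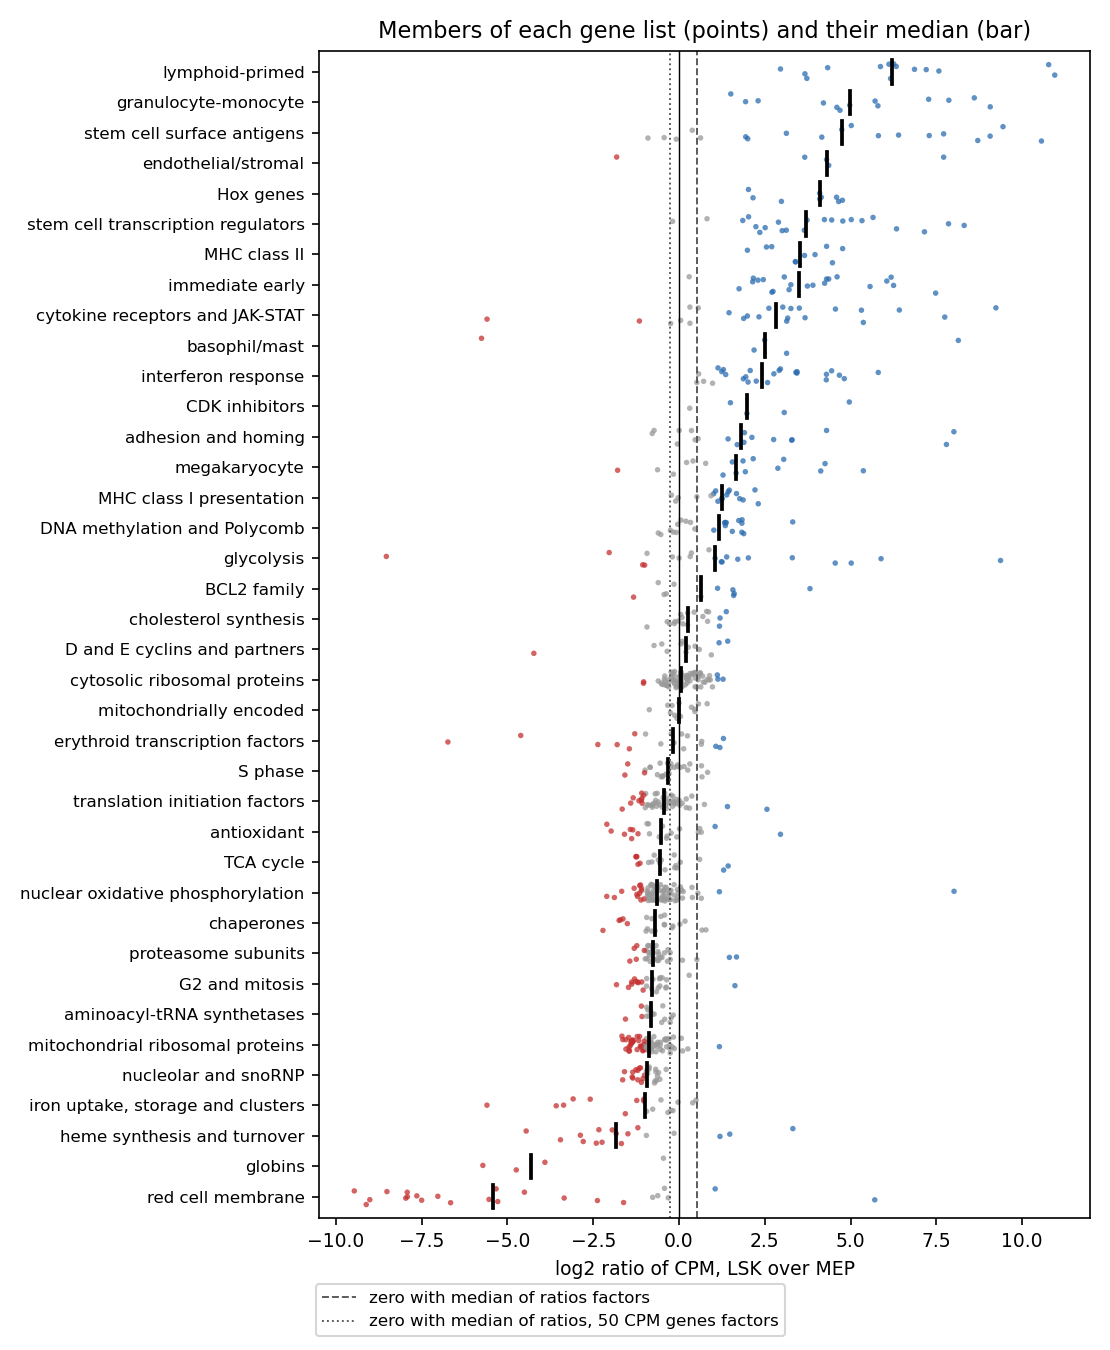
Log2 ratio of CPM, LSK over MEP, for members of each gene list with a mean of 1 CPM or more (points; blue and red are past 2-fold) and the list median (black bar). Lists run from red cell membrane (median -5.44) at the bottom to lymphoid-primed (6.21) at the top, and the dashed and dotted lines show where 0 falls under both median-of-ratios scalings. The medians of the cholesterol synthesis, cyclin, cytosolic ribosomal and mitochondrially encoded lists lie between the solid and the dashed line and that of the erythroid factors between the dotted and the solid line, so these change sign with the scaling.

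Each of the 23 immediate early genes had the higher CPM in LSK. All 18 of the members at 50 CPM were called higher in LSK under the 3 scalings, the median was 3.50 and the summed level was 8545 CPM in LSK against 861 CPM in MEP. Fos, an AP-1 subunit that is switched on within minutes of a stimulus, was at 1957 CPM in LSK and 99.2 in MEP, and at 798 in CMP and 204 in GMP, with a log2 ratio of LSK over MEP of 4.30 (4.27 to 4.33). Its partner Jun was at 1699 against 184 CPM. Zfp36, which destabilises cytokine transcripts, was at 223 against 3.35 CPM, and Klf2, a Kruppel-like factor of quiescent lymphocytes, at 329.7 against 4.53 CPM. Egr1 was at 163 against 17.0 CPM and, at 225 CPM, highest in CMP.

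The difference in immediate early genes was not confined to few cells, although the cell distributions overlapped. In cells thinned to 2000 UMIs, the 5th percentile in LSK was 3 UMIs of the list and the 95th percentile in MEP 11. The median LSK cell had 17 UMIs of the list among 2000 and the median MEP cell 1, with a middle range of 10 to 25 in LSK and 0 to 3 in MEP, and the medians in CMP and GMP were 9 and 2. At or below the LSK median were 98.5% (98.2 to 98.8%) of MEP cells, and 28.3% (27.2 to 29.5%) of MEP cells had no UMI of the list against 0.543% (0.413 to 0.700%) of LSK cells. These genes are known to respond to cell isolation as well as to growth signals. Of the values that bear on sample condition, mitochondrially encoded UMIs were at 3.21% in LSK and 3.31% in MEP and the heat shock gene Hspa1a at 17.3 and 10.1 CPM, while the nuclear RNA Malat1 was at 15987 CPM in LSK and 4089.6 in MEP. Handling times were not in the labels used here, so gate and handling cannot be told apart.

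Antigen presentation and interferon genes were higher in LSK. In the MHC class I list 10 of 15 genes were called higher in LSK by CPM and 3 under the 3 scalings, Psmb8, Tap2 and H2-T23, with a median of 1.25. B2m, the light chain of class I molecules, was at 3662 against 1819.6 CPM, and the heavy chains H2-K1 (1172 against 434) and H2-D1 (1533 against 698) lay on the same side. H2-T23, the nonclassical chain Qa-1, was at 189 against 40.7 CPM. Reads of H2 heavy chain genes can be shared between near-identical copies. The immunoproteasome subunit genes Psmb8 (648 against 203 CPM) and Psmb9 (248 against 89.6 CPM) went with them. Of the 37 proteasome subunit genes at 50 CPM, 5 were higher in MEP (13.5%, the same as the 13.5% of all genes), among them Psmd7 (205 against 553 CPM), and 2 with the 50 CPM factors. The median over 38 subunits was -0.75.

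All 6 of the MHC class II genes at 50 CPM were higher in LSK, with a median of 3.53. Cd74, the invariant chain, was at 238 CPM in LSK and 18.8 in MEP, and was seen in 25.1% (24.3 to 26.0%) of thinned LSK cells and 0.573% (0.402 to 0.792%) of thinned MEP cells. H2-Aa was at 139 against 7.03 CPM. The B cell list, whose genes Pax5 and Ms4a1 were at or near 0 in both libraries, summed to 49.8 CPM in LSK and 2.98 in MEP, and its part in this difference was not tested.

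Of 10 interferon response genes at 50 CPM, 8 were higher in LSK, 7 of them under the 3 scalings, with a median of 2.42. Ifitm1, a membrane protein that restricts viral entry, was at 768 against 30.1 CPM, and its relative Ifitm3 at 720.2 against 106 CPM. Ifi203, a PYHIN family gene with close relatives in its cluster, was at 201 against 3.59 CPM, and the transcription factor gene Irf1 at 61.0 against 3.10 CPM. The members that did not pass were Ifitm2 (703 and 490.4 CPM) and Bst2 (152 and 102 CPM). Thinned LSK cells had a median of 7 UMIs of this list and MEP cells 2.

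The B2m promoter is shown because its interferon-type element lies beside the start of a gene that stood at the 2-fold line (1.01), and the Cd72 promoter because it holds the PU-box letters GAGGAAGT in front of a gene with a log2 ratio of 7.399. Both were chosen after the matches were seen. B2m lies on the plus strand at chr2:122147537-122147685 and Cd72, a B cell co-receptor gene, on the minus strand at chr4:43454629-43454776 (RefSeq, GRCm38.p6). The interferon-type motif searched was GAAA, any 2 bases and GAAA again. Capitals mark it in B2m and the opposite-strand match of GAGGAAGT in Cd72.
B2m: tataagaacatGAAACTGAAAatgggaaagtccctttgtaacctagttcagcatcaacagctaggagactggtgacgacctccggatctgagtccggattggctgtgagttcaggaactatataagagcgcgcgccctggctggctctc
Cd72: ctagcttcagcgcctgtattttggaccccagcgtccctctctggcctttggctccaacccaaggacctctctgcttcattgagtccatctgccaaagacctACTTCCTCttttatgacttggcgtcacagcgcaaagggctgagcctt
The B2m match ran from base 139 to base 130 before the start site and the Cd72 match from 49 to 42. That motif, searched on both strands in the same windows of 250 bases before and 50 after the start site, was present for 18 of 37 matched genes of the interferon and MHC class I lists (48.65%) and for 3.993% of all genes in the table. Within these lists it was present for 5 of the 15 genes called higher in LSK and for 13 of the 22 not called. GAGGAAGT was present for 10 of 127 matched genes that were 10-fold higher in LSK (7.874%), for 3.689% of all genes, and for 0 of the 38 that were 10-fold higher in MEP. These shares describe the letters alone.

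Part of the mitosis genes were higher in MEP. Of 21 G2 and mitosis genes at 50 CPM, 9 were called higher in MEP by CPM (42.9%) and 6 with the 50 CPM factors (28.6%), none in LSK, with a median of -0.80. Cenpa, the centromeric histone variant, was at 106 against 376 CPM, and Cks2, a partner of cyclin-dependent kinases, at 297 against 824 CPM. Mki67, the proliferation antigen Ki-67, was at 98.5 against 203 CPM and is one of the 3 genes that lost the call with the 50 CPM factors, with Hmmr and Birc5. Kif23, a kinesin of cytokinesis, was below 50 CPM and lay on the LSK side, at 49.1 CPM in LSK and 15.8 in MEP. In the S phase list 3 of 26 genes were called higher in MEP (11.5%, against 13.5% of all genes), 2 with the 50 CPM factors, with a median of -0.31, so the list as a whole did not stand out. The helicase subunit Mcm6 was at 209 and 175 CPM.

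The cell distributions met at their upper ends. In cells thinned to 2000 UMIs the median of mitosis UMIs was 1 in LSK and 7 in MEP, yet the 95th percentile was 17 in both. The S phase medians were 4 and 8 with 95th percentiles of 15 in both. No UMI of the mitosis list was seen in 28.7% (27.8 to 29.5%) of LSK cells and in 2.23% (1.88 to 2.62%) of MEP cells. The MEP median of the mitosis list was reached by 14.9% (14.3 to 15.6%) of LSK cells.

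Among cyclins and their partners, 2 of 5 genes at 50 CPM passed, and they moved apart. Ccne1, cyclin E1, was at 5.18 CPM in LSK and 97.2 in MEP, and at 11.2 in CMP and 14.9 in GMP, with a log2 ratio of LSK over MEP of -4.23 (-4.38 to -4.08). Ccnd2, cyclin D2, was at 344 against 153 CPM, higher in LSK by CPM but not under the 3 scalings. The list median was 0.20 by CPM and -0.33 and -0.27 with median-of-ratios and TMM factors, so it has no stable direction. Cdkn2d, an inhibitor of CDK4 and CDK6, was at 63.1 against 16.0 CPM, and Cdk6 itself differed little, at 182 and 173 CPM. The survival gene Bcl2 was at 99.8 against 7.08 CPM, while Bax, which promotes cell death, was at 108 against 271 CPM.

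Part of the genes for ribosome assembly and mitochondria were higher in MEP, with list medians between -0.94 and -0.54, against -0.18 for all genes at 50 CPM. Over all genes 13.5% were higher in MEP by CPM and 8.27% with the 50 CPM factors. In the nucleolar and snoRNP list 11 of 25 genes were called higher in MEP by CPM (44.0%) and 4 with the 50 CPM factors (16.0%), none in LSK, with a median of -0.94. Npm1, nucleophosmin, was at 1876 against 4313 CPM and lost the call with the 50 CPM factors, and Nhp2, a small nucleolar RNP protein, at 213 against 666 CPM. Thinned LSK cells had a median of 12 UMIs of the list and MEP cells 25, and 1.24% (1.04 to 1.47%) of LSK cells reached the MEP median. The cytosolic ribosomal proteins themselves did not follow. Of 81 genes, 3 were called higher in LSK by CPM but not under the 3 scalings, and 1 in MEP. With the 50 CPM factors 9 were higher in LSK and 0 in MEP. The list median of 0.07 by CPM turned to -0.47 with median-of-ratios and -0.41 with TMM factors. Over the 81 genes it was 0.32 with the 50 CPM factors. The 3 called by CPM were Rps27, Rps28 and Rps29, with Rps29 at 5683 against 2590.1 CPM. The 1 in MEP was Rps27l (564 against 1157 CPM), which lost the call with the 50 CPM factors. Reads of ribosomal protein genes can be shared with pseudogenes, so single values are uncertain.

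Mitochondrial ribosomal proteins had 30 of 71 genes higher in MEP by CPM (42.3%) and 18 with the 50 CPM factors (25.4%), none in LSK, and a median of -0.88. Mrpl12 was at 160.4 against 470.2 CPM and Mrpl20 at 125 against 396 CPM. Nuclear genes of oxidative phosphorylation had 13 of 77 higher in MEP by CPM (16.9%, near the 13.5% of all genes). With the 50 CPM factors 4 were (5.19%, against 8.27% of all genes). None was higher in LSK, and the median by CPM was -0.63. By these counts the list did not stand out. Atp5g1, a subunit of the ATP synthase ring, was at 452 against 1668 CPM, and Cycs, cytochrome c, at 267 against 662 CPM. The genes that the mitochondrion encodes did not move with them. None of 12 was called by CPM, and 1 was higher in LSK with the 50 CPM factors. The list median was 0.00 by CPM, -0.54 with median-of-ratios and -0.47 with TMM factors. Over the 12 genes it was 0.22 with the 50 CPM factors. In the tricarboxylic acid cycle list 5 of 19 genes were higher in MEP by CPM, of which 1 remained with the 50 CPM factors, Cs, citrate synthase (38.01 against 90.6 CPM), and Idh2 was higher in LSK by CPM only (252 against 102).

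Glycolysis genes were called in both directions. Of 13 at 50 CPM, 5 were higher in LSK (38.5%, against 16.4% of all genes), 3 of them under the 3 scalings. In MEP 2 were higher (15.4%, near the 13.5% of all genes), 1 with the 50 CPM factors, and the list median was 1.05. Pkm, the pyruvate kinase of most tissues, was at 567 CPM in LSK and 9.55 in MEP, and at 416 in CMP and 775 in GMP, with a log2 ratio of LSK over MEP of 5.89 (5.79 to 5.99). Pklr, the pyruvate kinase of liver and red cells, was at 0.106 CPM in LSK and 39.4 in MEP and stayed below the 50 CPM line. Ldhb was at 95.4 against 2.94 CPM and Ldha at 515 against 1031 CPM, both lactate dehydrogenase chains, and Ldha lost its call with the 50 CPM factors. Gapdh (843 and 656 CPM) and Aldoa (301 and 300.1 CPM) differed little. Pgam1, a phosphoglycerate mutase gene, was higher in LSK under the 3 scalings, at 209 against 51.4 CPM.

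Chaperone genes had none higher in LSK and a list median of -0.70 by CPM. Of 19 tested, 4 were higher in MEP by CPM and with the 50 CPM factors (21.1%, against 13.5% and 8.27% of all genes). The mitochondrial chaperonin pair Hspd1 (342 against 1061 CPM) and Hspe1 (485 against 1627 CPM) was among them, with the cytosolic Hsp90aa1 (1229 against 3491 CPM). Antioxidant genes had 6 of 19 higher in MEP (31.6%, against 13.5% of all genes), 5 with the 50 CPM factors. In LSK 2 were higher (10.5%, against 16.4% of all genes), and the list median was -0.53. Prdx2, a peroxiredoxin abundant in red cells, was at 453 against 1364 CPM, and Gclm, a subunit of the enzyme that starts glutathione synthesis, at 124 against 490.3 CPM. Txnip, which binds thioredoxin, was higher in LSK under the 3 scalings, at 195 against 25.1 CPM.

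**Figure D4:**
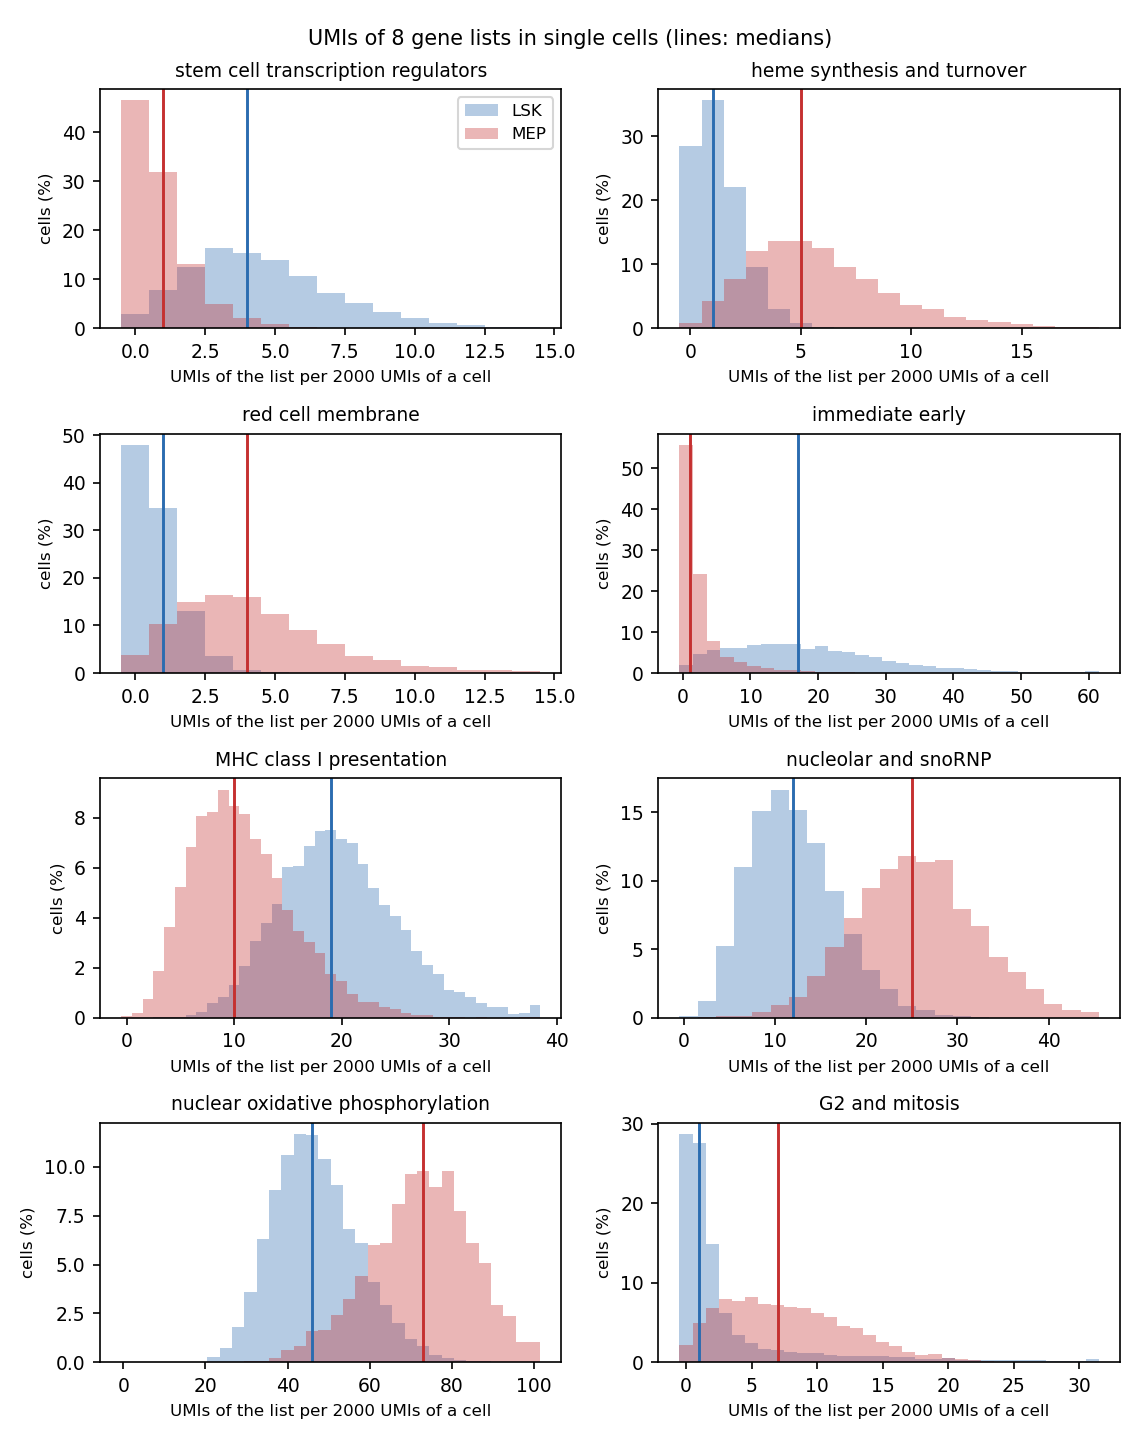
Distribution over cells of the UMIs of 8 gene lists among 2000 UMIs of a cell, as the percentage of LSK (blue) and MEP (red) cells, with lines at the medians; cells beyond the axis are placed in the last bar. The immediate early medians are 17 and 1, the nucleolar medians 12 and 25, and the mitosis histograms overlap at high values.

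Cells of both gates were compared on a joint score of 61 genes of the red cell membrane, heme and erythroid factor lists. The median was 6 UMIs of 2000 in LSK and 13 in MEP. The MEP median was reached by 1.49% (1.27 to 1.74%) of LSK cells, and 4.92% (4.40 to 5.48%) of MEP cells were at or below the LSK median. The ranges overlapped more widely away from the medians. The 5th percentile of MEP cells, 7 UMIs, was reached by 38.75% (37.83 to 39.67%) of LSK cells, and 33.72% (32.55 to 34.90%) of MEP cells lay at or below the LSK 95th percentile of 11. For the stem cell regulators the medians were 4 and 1, and 46.5% (45.3 to 47.7%) of MEP cells had no UMI against 2.88% (2.57 to 3.21%) of LSK cells.

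Pairs of related genes were set side by side. The 35 pairs and their order were chosen with earlier results of these data known, so their counts describe the choice: 28 had log2 ratios that differed by 1 or more, 27 of them with the first-named gene the more LSK-biased. The pairs called in opposite directions under the 3 scalings were 3. Among them, Klf2 and Klf1 differed by 12.92 (12.70 to 13.14) and Ldhb and Ldha by 6.02 (5.83 to 6.21), although Ldha lies at the 2-fold line and lost its call with the 50 CPM factors. Pkm and Pklr had the widest gap, 14.42, with Pklr below 50 CPM. Gata2 and Gata1 differed by 5.43, with log2 ratios of 0.82 and -4.61. Sphk2 and Sphk1 differed by 8.96 and Tspo and Tspo2 by 7.48, with the first member similar in both libraries and the second far higher in MEP. Nfe2l2 and Nfe2 were the 1 pair of the 28 with the gap in the other direction, at -2.05. The mitoferrins Slc25a28 and Slc25a37 did not separate, with a difference of -0.10 (-0.27 to 0.07). A difference between 2 ratios does not change with the scaling of the libraries.

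**Figure D5:**
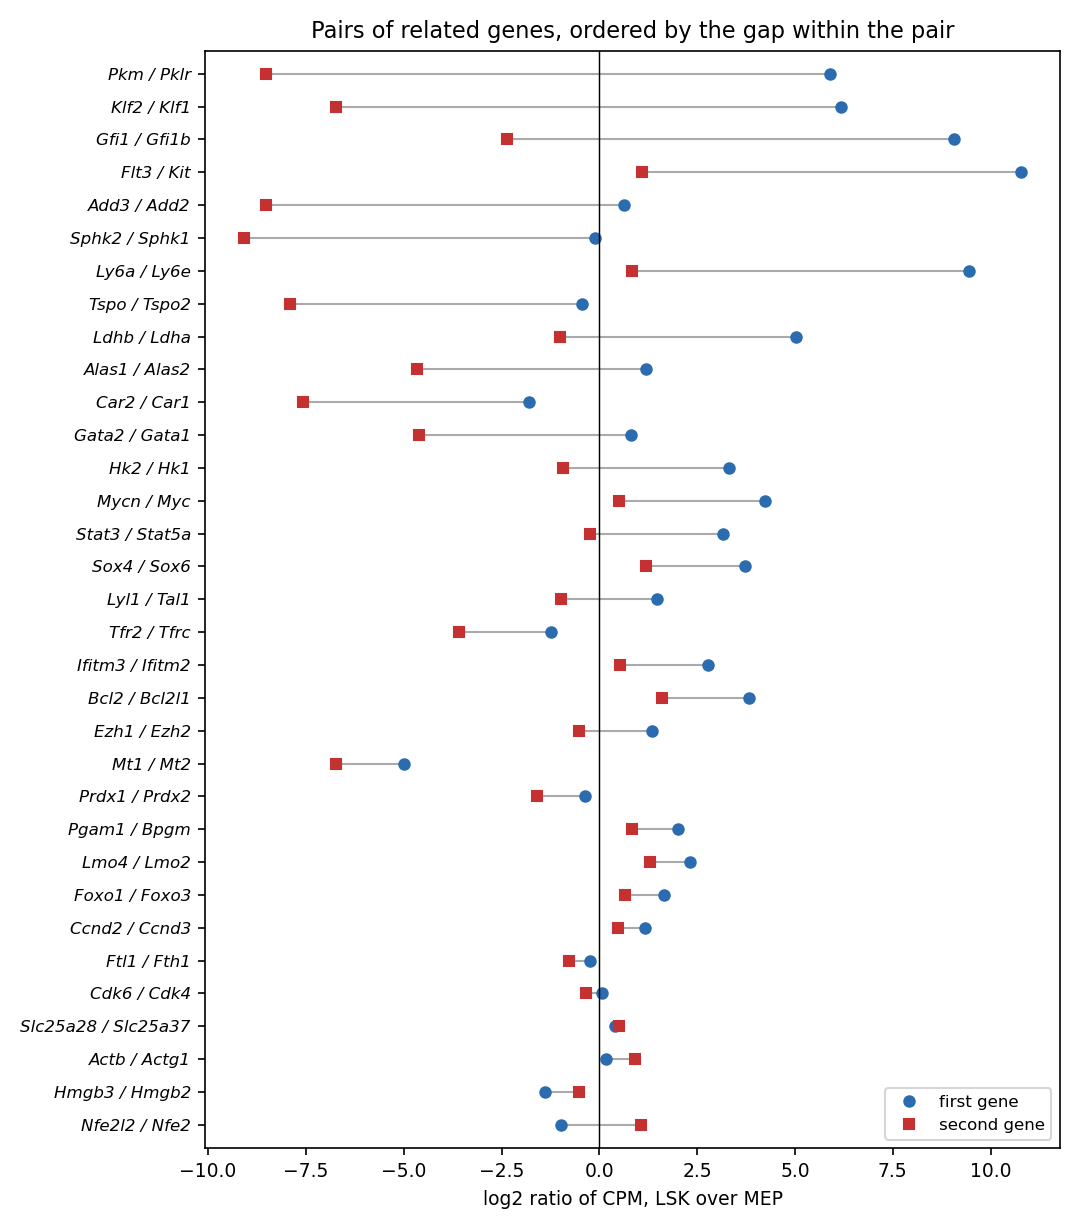
Log2 ratios of CPM, LSK over MEP, for 33 of the 35 pairs of related genes; circles are the first gene and squares the second, ordered by the gap. Pkm and Pklr are the widest pair at 14.42, and Nfe2l2 and Nfe2 the pair with the largest reversed gap at -2.05.

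The levels in the other gates place the called genes. Of the 548 genes higher in LSK, 417 were highest in LSK among the 4 libraries, 65 in CMP and 66 in GMP, and 448 were lowest in MEP. Of the 452 genes higher in MEP, 442 were highest in MEP and 10 in GMP, and 304 were lowest in LSK. Since the genes were chosen for differing between LSK and MEP, these libraries hold the extremes in part by construction.

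Markers of other bone marrow cells were low in both libraries. The B cell gene Pax5 was at 0.106 CPM in LSK with 0 UMIs in MEP, the T cell gene Cd3e at 0.0266 CPM and 0, and the macrophage gene Adgre1 at 0.0798 CPM and 0. The summed level of the 8 macrophage genes was 16.6 CPM in LSK and 1.06 in MEP. Of the 8 listed B cell genes Cd79b was the exception at 42.2 against 1.64 CPM, and of the T and NK genes Nkg7, at 288 against 44.3 CPM and 1205 CPM in GMP. In the endothelial list Cdh5 was at 0.0133 CPM and 0, while Emcn (18.3 against 0.0872 CPM) and Pecam1 (37.3 against 1.89 CPM), both below 50 CPM, lay on the LSK side. The eosinophil genes summed to 0.931 and 0.162 CPM. In the plasma cell list Xbp1 and Sdc1 were at 67.2 and 12.1 CPM in LSK and 38.3 and 0.909 in MEP, with Jchain at 0.293 and 3.01 CPM. Basophil and mast cell genes summed to 38.6 CPM in LSK and 21.9 in MEP, and the median of the list was 2.49. Their part in the differences between the libraries was not tested.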

How the data were processed

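Bone marrow cells of 4 sort gates, each deposited as 1 droplet library, were analysed, and LSK was compared with MEP. The deposited matrices hold raw UMI counts per gene and barcode. Per the submitters' processing notes, CASAVA 1.8.2, Cell Ranger 2.0.0 and Seurat 2.3.0 were used with mm10, with settings that the sources at hand do not give. The LSK matrix holds 737280 barcodes and the MEP matrix 6370. A UMI minimum chose the LSK cells. The 2 deposited CMP matrices hold identical values and were counted as 1 sample; they list 3738 barcodes, where the series text states 12185 cells.

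CPM were computed from the counts summed over kept cells. A gene was called at 2-fold and 50 CPM in the higher library, with no test, since each gate has 1 library. Ratios have exact conditional binomial intervals, levels exact Poisson and shares of cells Clopper-Pearson intervals, all at 95%. Shares of cells and list UMIs used cells thinned to 2000 UMIs, which left out no LSK or MEP cell and 36 CMP cells. A list median covers members averaging at least 1 CPM over LSK and MEP. The rule for named genes took the 15 with the largest ratio per direction (without predicted, ribosomal protein and mitochondrially encoded genes), the 10 with the largest CPM difference, the gate antigens, the genes of 35 pairs, all members of the factor, stem cell, globin, heme, iron and CDK inhibitor lists, and the 6 members of any other list with the highest CPM. Other genes named, among them list members below those 6, exceptions within lists, Cd72 and the genes at the 2-fold line, were chosen after their values were seen. The members and lists were chosen with earlier results of these data known. Doublets were kept; as an alternative the 945 LSK and 316 MEP cells with the highest scores against simulated doublets were left out (0.8% per 1000 cells). Other alternatives changed the scaling, minimum, fold, cell filters, depth and shared barcodes. Values of a few genes are not reported here. The script was tested on simulated counts. Genes were matched to GENCODE M21 (GRCm38) for 27645 of 27998, and promoters came from RefSeq. Tools were Python 3.11.15, numpy 2.4.6, scipy 1.17.1, pandas 2.3.3, scikit-learn 1.9.0, matplotlib 3.10.9, R 4.3.3 and edgeR 4.0.16 (TMM factors only).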

Additional observations from a re-analysis of the deposited data

Results flagged for a closer look

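The LSK matrix also holds 426182 barcodes of 1 to 100 UMIs, which entered no comparison and carry 1179757 UMIs. Globin transcripts were present there above the level of 3 UMIs (2.54 CPM). Hbb-bt was at 37.3 CPM (44 UMIs), Hbb-bs at 10.2 CPM (12 UMIs) and Hba-a1 at 5.09 CPM (6 UMIs). In LSK cells the same genes were at 42.1, 4.11 and 2.01 CPM. By value Hba-a1 and Hbb-bs were thus higher in the low barcodes than in the cells, on few UMIs and without an interval, while Hbb-bt was close to equal. Cd34 and Ly6a, transcripts of the sorted cells, were at 409 and 80.5 CPM in the low barcodes, near their 399 and 78.2 CPM in the cells.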

How the results depend on the processing

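No paired analysis was possible because each gate is 1 library and no test between replicates was made. Both the scaling and the CPM minimum moved the counts. Genes higher in MEP numbered 1203 with median-of-ratios, 1098 with TMM and 277 with median-of-ratios factors over genes at 50 CPM in both libraries, and UMIs per cell gave 332 genes higher in LSK and 1784 in MEP. Totals without ribosomal and mitochondrially encoded genes gave 574 and 401. A minimum of 10 CPM gave 2002 and 736 genes (73.12% in LSK) and no minimum beyond 3 counts 6359 and 1238 (83.7%). The 4-fold line gave 307 and 97 genes, and the 1.5-fold line 995 genes higher in MEP. The alternatives on cells, barcodes, doublet scores, shared barcodes, thinning and weighting of cells, stayed between 492 and 555 genes for LSK and between 357 and 459 for MEP. No list median of 1 or more in size and no called named gene changed sign under the alternatives run. For the scalings this was fixed in advance, since their largest shift of the log2 ratios was -0.89. List medians moved by less than 0.1 in 362 of their recalculations and by more in 293, and named genes stayed within their counting interval in 914 and left it in 668. Each scaling shifts all list medians alike, so with TMM factors all 44 counted among the 293. Depth limits the low side of large ratios: with 2 UMIs of Procr in MEP, the interval of its log2 ratio spans 9.30 to 14.20.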

Other observations

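Membrane transport and vesicle genes were taken by symbol, some of them already named above. Of 332 solute carrier genes, 19 reached 50 CPM, 6 of them higher in MEP (31.6%, against 13.5% of all genes). In LSK 1 was higher (5.26%, against 16.4% of all genes). With median-of-ratios factors over genes at 50 CPM in both libraries 5 stayed higher in MEP. Those in MEP included the lactate and pyruvate carrier Slc16a1 (13.5 against 55.3 CPM), the folate carrier Slc19a1 (25.1 against 66.0) and the nucleoside transporter Slc29a1 (61.1 against 129), the 1 that lost its call with those factors. The 1 in LSK was the sugar transporter Slc50a1 (107 against 26.7 CPM). Of 14 Rab GTPase genes at 50 CPM, 2 were higher in LSK (14.3%, against 16.4% of all genes) and 1 in MEP (7.14%, against 13.5%). By these shares the family did not stand out. Rab38 (175 against 51.5 CPM) and Rab37 (60.8 against 13.5) were those in LSK and Rab4a (12.7 against 85.0) the 1 in MEP. Of 21 genes named Zfp at 50 CPM, 4 were higher in LSK (19.0%, near the 16.4% of all genes) and none in MEP, with Zfp608 at 59.2 against 0.386 CPM.

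Translation initiation factor genes had 8 of 40 higher in MEP (20%, against 13.5% of all genes). With the factors over 50 CPM genes 3 were (7.5%, against 8.27% of all genes). In LSK 1 was higher by CPM but not under the 3 scalings, and the list median was -0.45. Eif4ebp1, an inhibitor of cap-dependent translation, was at 111 against 350.3 CPM, and Eif4a2 was the gene higher in LSK at 214 against 80.4 CPM. Of 13 aminoacyl-tRNA synthetase genes, 2 were higher in MEP (15.4%, near the 13.5% of all genes), Hars (43.1 against 127 CPM) and Gars (55.9 against 118 CPM), with a median of -0.83. Gars lost its call with the factors over 50 CPM genes. The cholesterol synthesis list had none of 3 genes called and a median of 0.25 by CPM, which turned to -0.29 and -0.22 with median-of-ratios and TMM factors. Il1rl1, the interleukin 33 receptor gene known from mast cells and basophils, was at 0.293 CPM in LSK and 15.8 CPM in MEP, while Mcpt8, a basophil protease gene, was at 10.6 CPM in LSK with 0 UMIs in MEP.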
